A study of Mus musculus with 6 samples.

Results

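The genes described here encode the translation initiation factors eIF1 to eIF6 and the elongation factors eEF1 and eEF2, with their inhibitors, kinases and modifying enzymes. They were chosen by symbol alone: every gene whose symbol begins with Eif1 to Eif6 or with Eef1 or Eef2, on a probeset annotated to 1 gene, represented by the probeset with the highest mean signal. The rule found 58 of 18193 genes. The brightest probeset of 56 of them passed the filter on low signals, which 13854 genes passed in all. Symbols bring in 4 methyltransferases (Eef1akmt1, Eef1akmt2, Eef1aknmt and Eef2kmt) that modify elongation factors and take no part in the decoding cycle themselves. Another 8 probesets annotated to several genes, at least 1 of them with a matching symbol, were left out.

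RNA was taken from hippocampi of male C57BL/6 mice aged 9 months, 3 of them Glud1 Tg and 3 wt, and each mouse was measured on 1 Affymetrix Mouse Genome array. By the study, neurons of the Tg mice form excess glutamate and release more of it at synapses. In these mice the Nse promoter, of a neuronal enolase, drives Glud1, a mitochondrial enzyme of glutamate metabolism. The transgene is thus limited to neurons, while the RNA is that of all cells of the tissue. Fewer cells of a type and less messenger RNA per cell cannot be told apart in such samples. Each value is a linear MAS5 signal as deposited, and values after ± are SDs over the 3 mice of a group. Differences are Tg minus wt on the scale of log2(signal + 16), with the SE and the adjusted p of limma over 31076 kept probesets.

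Initiation begins when eIF2, loaded with GTP and the initiator tRNA, joins the small ribosomal subunit together with eIF1, eIF1A, eIF3 and eIF5, while eIF4E, eIF4G and the helicase eIF4A bind the capped end of the messenger. eIF2B recharges eIF2 with GTP, and the kinases that phosphorylate eIF2 alpha block this step during stress. eIF5B joins the subunits, eEF1A brings each aminoacyl-tRNA, and eEF2 moves the ribosome along. In neurons the same machinery also works in dendrites, where eIF4E-binding proteins and the eEF2 kinase are known controls of protein synthesis at synapses.

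At the brightest probesets, the signal of most factors was slightly lower in Tg than in wt mice, and no factor passed the test. Of 56 genes, limma called 0 and Cyber-T called 0 at an adjusted p of 0.05. Over all kept probesets limma called 0% and Cyber-T 0.209%. A positive difference was seen for 14 of 56 genes (25%), against 44.1% of all genes at their brightest kept probeset. The median difference was -0.056 over the factors and -0.031 over all genes. The extremes were -0.43 for Eif5a2 and 0.32 for Eif2ak2. An unadjusted p under 0.05 was reached by 9 factors (16.1%) with a lower signal in Tg mice, a background of 4.97%, and by 0 with a higher signal, a background of 2.9%. All 3 Tg arrays lay below all 3 wt arrays for 10 factors (17.9%), where the background is 8.81%, and above them for Eif2s3x alone (1.79%), where it is 5.2%. Group means at least 1.3-fold apart were found for 2 factors (3.57%), Eif5a2 and Eif5b, against 15.9% of all genes.

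**Figure D1:**
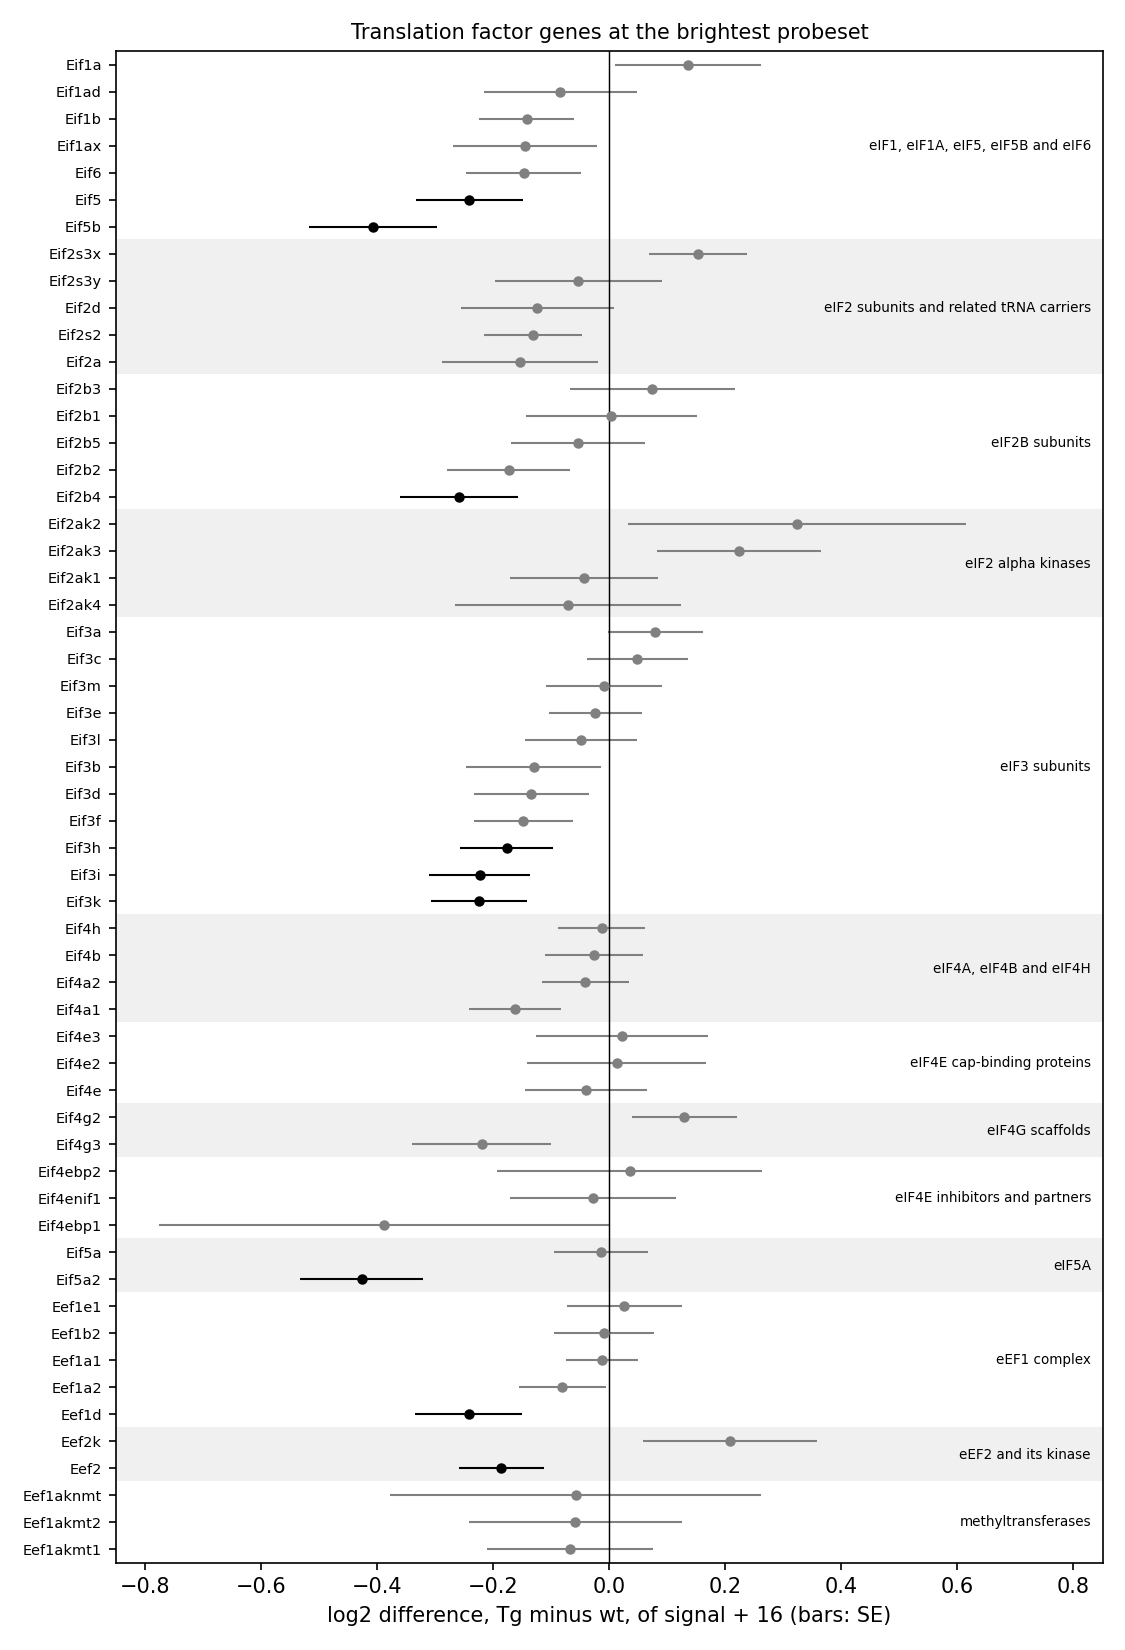
Log2 difference (Tg minus wt, horizontal axis) of the 56 kept factor genes at the brightest probeset, grouped by role. Points are the fitted differences of 3 Tg and 3 wt arrays, bars are SEs, and black points have an unadjusted p under 0.05. The 9 black points lie left of 0, between -0.43 and -0.18.

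These counts moved with the scaling and with single arrays. With each array centred on the median of its probesets, 8 factors had a positive difference, among 32.0% of all genes, and the median was -0.12, where that of all genes was -0.097. With both wt 1 and wt 2 left out, 24 factors had a positive difference, among 44.5% of all genes, and the median was -0.036, against -0.031 for all genes. The count of 9 lower factors was 5 without Tg 1, 4 without Tg 3 and 4 without wt 2. It was 2 without the intensity trend in limma. The share of all genes at that limit was not computed for these settings, so these counts have no background.

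Several other values differed between the groups or between single arrays, and their part in these differences was not tested. Dim and bright probesets did not behave alike: among the 3464 genes that make up the top 25% by signal, 35.7% had a positive difference, the median was -0.050, and in 14.9% all Tg arrays lay below the wt arrays. Of the factors, 31 belonged to them, with a median of -0.081, 5 positive differences and 7 with all Tg arrays below. In the next 25%, where 44.8% of all genes were positive and the median was -0.023, there were 19 factors with a median of -0.054 and 6 positive differences. The 18S RNA control had signals of 1695, 976 and 3313 on the Tg arrays and of 13960, 10375 and 2287 on the wt arrays. The array wt 2 gave the highest signal of the 6 for 23 of the 56 factors. Its median deviation from the factors' means over the 6 arrays was 0.087, against 0.028 and 0.0093 on the other wt arrays and -0.044 to -0.022 on the Tg arrays. The ratio of the 3' to the 5' probeset of Actb was 1.64 to 1.69 on Tg and 1.70 to 1.95 on wt arrays. That of Gapdh overlapped, at 0.781 to 0.800 on Tg and 0.752 to 0.908 on wt arrays.

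**Figure D2:**
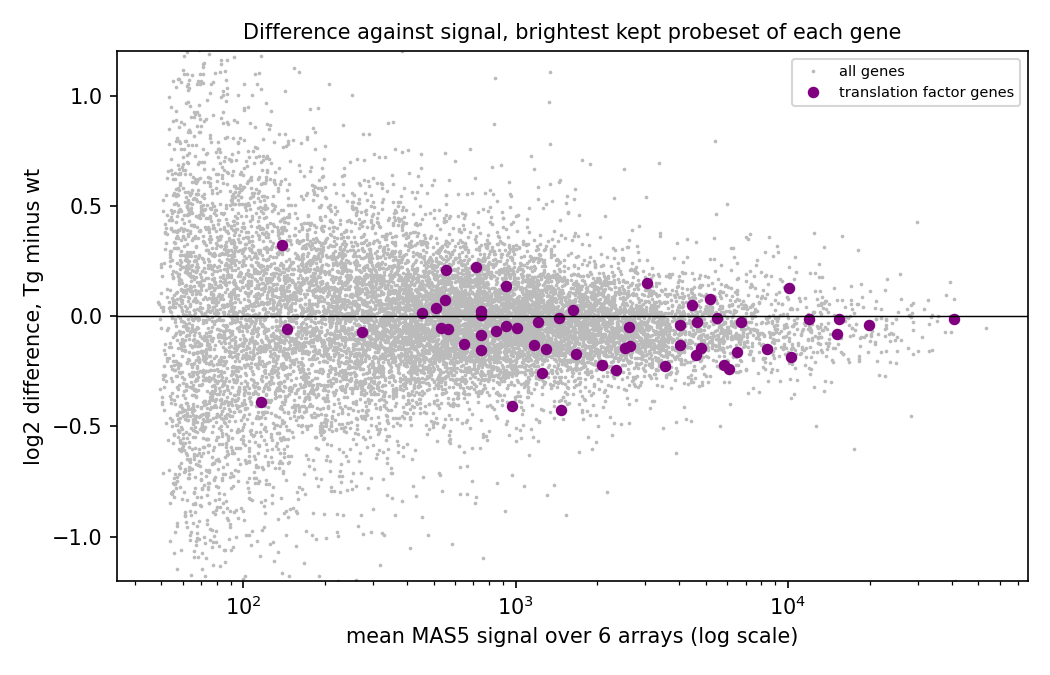
Log2 difference (Tg minus wt, vertical axis) against the mean MAS5 signal over 6 arrays (log scale) at the brightest kept probeset of each gene, with 75 genes outside the vertical range of 1.2. Grey points are all genes and purple points the 56 factors, of which 31 lie in the top 25% by signal and 5 of those above 0.

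Marker genes of the tissue were checked on the same arrays. All 10 markers of dentate gyrus granule cells were measured and higher in mean in Tg mice (median 0.29, summed signal 15560 to 17183 in Tg and 12279 to 15742 in wt mice). All 8 interneuron markers were lower (median -0.35, summed signal 18057 to 21258 in Tg and 21703 to 26439 in wt mice), as were 6 of 7 markers of the subiculum and retrohippocampal cortex (median -0.79, 4803 to 5186 in Tg and 6439 to 6841 in wt mice). Lower means were also found for 7 of 8 astrocyte (median -0.16), 6 of 7 endothelial (-0.19), 5 of 8 microglial (-0.12) and 5 of 7 oligodendrocyte markers (-0.11), and higher means for 5 of 7 markers of CA2 and CA3 (0.25) and 3 of 5 of CA1 pyramidal cells (0.0072). Choroid plexus markers ranged from 4601 to 67947 in summed signal among the Tg arrays alone. Limma called 0 of these genes. An unadjusted p under 0.05 was reached, among others, by 4 dentate gyrus markers in the higher direction and by 4 interneuron and 4 subiculum markers in the lower, and Cyber-T called Dsp, Lct, Tshz2 and Sst. Their part in the factors' differences was not tested. Glud1 itself was not higher on the arrays labelled Tg. Its signal was 5424 ± 268 in Tg and 6009.6 ± 368 in wt mice at its brightest probeset (-0.15, adjusted p = 0.595). Whether its probesets match the transgene's messenger RNA is not given in the sources used here, so they do not check the labels.

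The lower factors took part in different steps. Among the factors of start site recognition and subunit joining, 6 of 7 had a lower mean in Tg mice (median -0.15). Eif5b, the GTPase that joins the ribosomal subunits, gave signals of 837, 867 and 800 in Tg and 1089, 1148 and 1098 in wt mice. The Tg arrays lay well below the wt arrays, with a difference of -0.41 (SE 0.11, adjusted p = 0.252). Eif5, which triggers GTP hydrolysis by eIF2, gave 5316, 6136 and 5289 in Tg and 6785, 7036 and 5978 in wt mice. Here Tg 2 lay above wt 3, and the difference was -0.24 (SE 0.0918, adjusted p = 0.427). The next brightest Eif5 probeset gave 5470 ± 416 in Tg and 6414 ± 676 in wt mice (-0.23, adjusted p = 0.471), with no overlap. The dimmer Eif5 probesets differed by -0.10, 0.019 and -0.021, each with overlap. Eif1b, a close relative of the start codon selection factor eIF1, was at 4565 ± 247 in Tg and 5040 ± 229 in wt mice, and the groups overlapped. Eif6, which keeps the large subunit from joining too early, was within 1217 to 1230 in Tg and 1330 to 1369 in wt mice. The arrays did not overlap, and the difference was -0.15 (SE 0.0988, adjusted p = 0.659). At the brightest probesets Eif1a had the only positive difference of this list, at 967 ± 53.9 in Tg and 882 ± 105 in wt mice with overlapping arrays. The dimmer Eif1a probeset had the opposite sign, with a difference of -0.32 (SE 0.15, adjusted p = 0.527) and overlap, so the direction for Eif1a differed between its probesets.

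In the list of eIF2 subunits and related tRNA carriers, 4 of 5 genes had a lower mean in Tg mice (median -0.12). Of these, Eif2a (-0.15) and Eif2d (-0.12) encode separate factors and no subunit of eIF2. The exception was Eif2s3x, the X-linked gene of the gamma subunit, with signals of 3094, 3380 and 3121 in Tg and 2780, 2936 and 2910 in wt mice. Each Tg array exceeded each wt array, and the difference was 0.15 (SE 0.0847, adjusted p = 0.597). Its next brightest probeset had a difference of 0.038, and its dimmest, which the study lists, gave 666, 943 and 943 in Tg and 525, 546 and 779 in wt mice (0.46, SE 0.183, adjusted p = 0.453). Both overlapped between the groups, with Tg 1 below wt 3 at the dimmest. Eif2s3y, the Y-linked copy, was at 522 ± 52.7 in Tg and 541 ± 30.2 in wt mice. The brightest Eif2s3x probeset carries the suffix x, which marks probes that can bind related sequences. Eif2s2, the beta subunit, gave 3822 ± 234 in Tg and 4187 ± 206 in wt mice with overlap. At a dimmer Eif2s2 probeset the signals were 1145, 1166 and 1702 in Tg and 1746, 1923 and 1868 in wt mice, a difference of -0.48 (SE 0.144, adjusted p = 0.293). The Tg arrays were all lower there, but Tg 3 came close to wt 1. The other dimmer Eif2s2 probesets differed by -0.11, -0.41, 0.082 and 0.15, each with overlap.

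The guanine nucleotide exchange factor eIF2B has 5 subunits, of which 3 had a lower mean in Tg mice (median -0.054). Eif2b4, its delta subunit, gave 1085, 1173 and 1148 in Tg and 1394, 1355 and 1337 in wt mice. These groups were clearly apart for their spread, with a difference of -0.26 (SE 0.102, adjusted p = 0.445). Eif2b2, the beta subunit, was at 1570 ± 122 in Tg and 1773 ± 141 in wt mice with overlap, and at a dimmer probeset at 798 ± 51.4 and 1008 ± 75.1 without overlap (-0.33, adjusted p = 0.403). The dimmest Eif2b2 probeset differed by 0.0016, with overlap. Eif2b1, Eif2b3 and Eif2b5 differed by -0.054 to 0.074.

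Of the kinases of eIF2 alpha, 2 of 4 had a higher mean in Tg mice (median 0.090), and 0 had an unadjusted p under 0.05 in limma. Eif2ak3 (PERK), which answers stress in the endoplasmic reticulum, gave 665, 905 and 757 in Tg and 688, 627 and 657 in wt mice. Tg 1 lay inside the wt range, and the difference was 0.22 (SE 0.142, adjusted p = 0.641). Eif2ak1, the haem-regulated kinase, was at 908 ± 98.2 in Tg and 935 ± 81.9 in wt mice. Eif2ak4 (GCN2), the sensor of uncharged tRNA, was at 266 ± 35.6 and 280 ± 30.8, while a dimmer probeset was at 243 ± 43.6 in Tg and 152 ± 20.8 in wt mice with no overlap (0.62, SE 0.237, adjusted p = 0.428). Eif2ak2 (PKR), which responds to double-stranded RNA, had the highest difference of all the factors and a large error (0.32, SE 0.291, adjusted p = 0.749), at a signal near 139.

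The eIF3 complex, the scaffold on the small subunit, was the largest list, with 11 genes. A lower mean in Tg mice was found for 9 of them, and the median was -0.13. Eif3k gave 3336, 3301 and 3133 in Tg and 3782, 3985 and 3659 in wt mice, so that the groups did not overlap (-0.22, SE 0.0822, adjusted p = 0.409). Eif3i gave 5006, 5730 and 5406 in Tg and 6792, 6258 and 5814 in wt mice. Its groups were separate by a narrow margin between Tg 2 and wt 3 (-0.22, SE 0.0873, adjusted p = 0.444), and its dimmer probeset gave 3591 ± 463 in Tg and 3443 ± 289 in wt mice. Eif3h gave 4191, 4634 and 4190 in Tg and 4928, 4853 and 4926 in wt mice (-0.18, SE 0.0796, adjusted p = 0.505). The wt mice were close to each other and above every Tg mouse. Eif3f and Eif3e, whose probesets gave the highest signals of this list, were at 7916 ± 193 and 6703 ± 460 in Tg and at 8802 ± 862 and 6812 ± 281 in wt mice, all with overlap.

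Eif3a, the largest subunit, and Eif3c were the members of eIF3 with a higher mean in Tg mice. Eif3a, which the study names as up-regulated in Tg mice, was at 5324 ± 299 in Tg and 5039 ± 272 in wt mice (0.079, adjusted p = 0.79). The dimmest Eif3a probeset, which the study lists, gave 381, 345 and 343 in Tg and 245, 166 and 347 in wt mice. The array wt 3 was inside the Tg range, and the difference was 0.52 (SE 0.241, adjusted p = 0.515). Of the other Eif3a probesets, the dimmer gave 1053 ± 221 in Tg and 783 ± 88.1 in wt mice without overlap (0.41, adjusted p = 0.428), and the brighter gave 2280 ± 75.5 and 2423 ± 129. The study chose its probesets on these same mice, so they are no independent evidence of a direction.

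**Figure D3:**
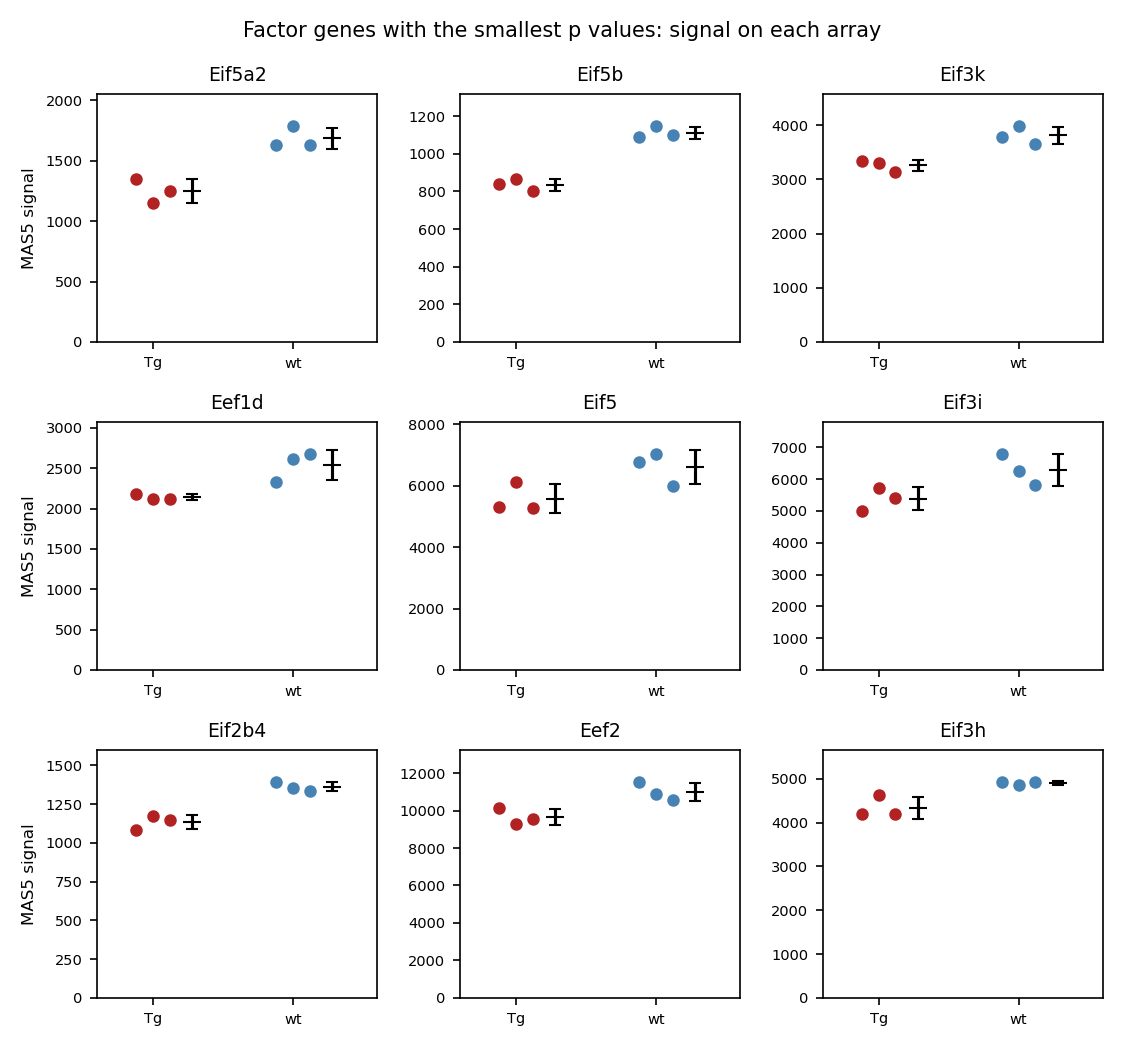
MAS5 signal (vertical axis, from 0) of the 9 factor genes with an unadjusted p under 0.05. Each point is 1 mouse (red Tg, blue wt), and the black mark beside each group is the mean with its SD. In 8 of the panels the Tg points lie below the wt points without overlap, and for Eif5 Tg 2 lies above wt 3.

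No gene of the cap-binding complex had an unadjusted p under 0.05 in limma at its brightest probeset, and the differences ranged from -0.22 for Eif4g3 to 0.13 for Eif4g2. Eif4e, the cap-binding protein, was at 3949 ± 49.8 in Tg and 4092 ± 634 in wt mice (-0.041, SE 0.105). Its sign rested on wt 1, at 4824, and without that array the difference was 0.083. The study names Eif4e among the genes up-regulated in Tg mice. The dimmer Eif4e probesets differed by 0.053, -0.054 and 0.33, each with overlap. Eif4e3 and Eif4e2 differed by 0.021 and 0.012. Eif4a2, a form of the helicase abundant in brain, was at 19598 ± 982 in Tg and 20187 ± 1363 in wt mice. Eif4h, which assists the helicase, was at 11934 ± 895 and 12024 ± 33.1, and Eif4b at 4593 ± 200 and 4684 ± 343. Eif4a3 belongs to the exon junction complex, and its probeset, at 4.5 to 14, did not pass the filter. The scaffolds split at their brightest probesets only. Eif4g2 was at 10550 ± 572 in Tg and 9677 ± 1072 in wt mice and Eif4g3 at 1920 ± 179 and 2247 ± 318, each with overlap (adjusted p = 0.674 and 0.588). The dimmer Eif4g2 probesets were all lower in mean in Tg mice, with differences of -0.094, -0.18, -0.17 and -0.078. At -0.18 the arrays did not overlap (adjusted p = 0.516 by limma). The dimmer Eif4g3 probesets differed by -0.90, 0.13 and 0.36, each with overlap. Of the proteins that bind eIF4E and repress translation, Eif4enif1 was at 1204 ± 256 and 1210 ± 16.4, Eif4ebp2 at 506 ± 64.8 and 512 ± 178, and Eif4ebp1, near the filter, ranged from 49.8 to 176 among the Tg mice.

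Eif4a1, the helicase of the ubiquitous cap-binding complex, gave opposite differences at its 3 probesets. At the brightest the signals were 6280, 6218 and 5970 in Tg and 6554, 7450 and 6706 in wt mice, and the Tg arrays lay below the wt arrays (-0.16, SE 0.0790, adjusted p = 0.54). At the next brightest they were 5098, 4849 and 6260 in Tg and 4013, 3101 and 3847 in wt mice. At the dimmest they were 3613, 3643 and 4664 in Tg and 2511, 2034 and 2706 in wt mice. At these latter probesets, which the study lists, every Tg array lay above every wt array, and the study names Eif4a1 as up-regulated. Their differences were 0.56 (SE 0.119) and 0.71 (SE 0.127), with adjusted p values of 0.212 and 0.191 by limma and of 0.038 and 0.0128 by Cyber-T. They were the only 2 of 137 kept factor probesets that Cyber-T called, where it called 65 of all 31076 kept probesets (0.209%). The array wt 2 had the highest signal at the brightest probeset and the lowest at both others. The log2 ratio of the dimmest to the brightest probeset differed between the groups by 0.88, and that of the next brightest by 0.73, each with p = 0.1 in a two-sided exact permutation test, the smallest that 3 against 3 mice allow. With the mean of all its probesets the difference of the gene was 0.37. Which transcripts each probeset binds is not given in the sources used here, and a probeset with the suffix a was designed on several transcripts of its gene.

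Probesets of opposite sign were also found for other factors. The factors have 81 further kept probesets, all dimmer than the brightest of the same gene, and 44 of these 81 had the opposite sign. The share of opposite signs over all genes was not computed, so the 44 cannot be read as a result about the factors. A positive difference was found for 43 of them (53.1%), where the background over other probesets of all genes is 59.6%. An unadjusted p under 0.05 was reached by 9 higher (11.1%, background 7.73%) and 4 lower (4.94%, background 2.84%). All Tg arrays were above the wt arrays for 5 (6.17%, background 10.7%) and below them for 6 (7.41%, background 4.92%). The median difference was 0.0069, against 0.069 for such probesets of all genes. The ratio to the brightest probeset reached the smallest exact permutation p of 0.1 for 12 of the 81, and the smallest adjusted value was 0.675. This count has no background over all genes either. Both probesets were free of overlap and opposite in direction in 3 pairs, 2 of Eif4a1 and 1 of Eif5b. For Eif5b the next brightest probeset gave 515, 601 and 610 in Tg and 392, 502 and 432 in wt mice (0.37, SE 0.154, adjusted p = 0.469). The dimmest Eif5b probeset gave 248 ± 29.5 and 280 ± 43.0 with overlap. The other higher values were at dimmer probesets of Eif4b (0.43, adjusted p = 0.429) and Eif4h (0.41, adjusted p = 0.485), both with overlap.

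**Figure D4:**
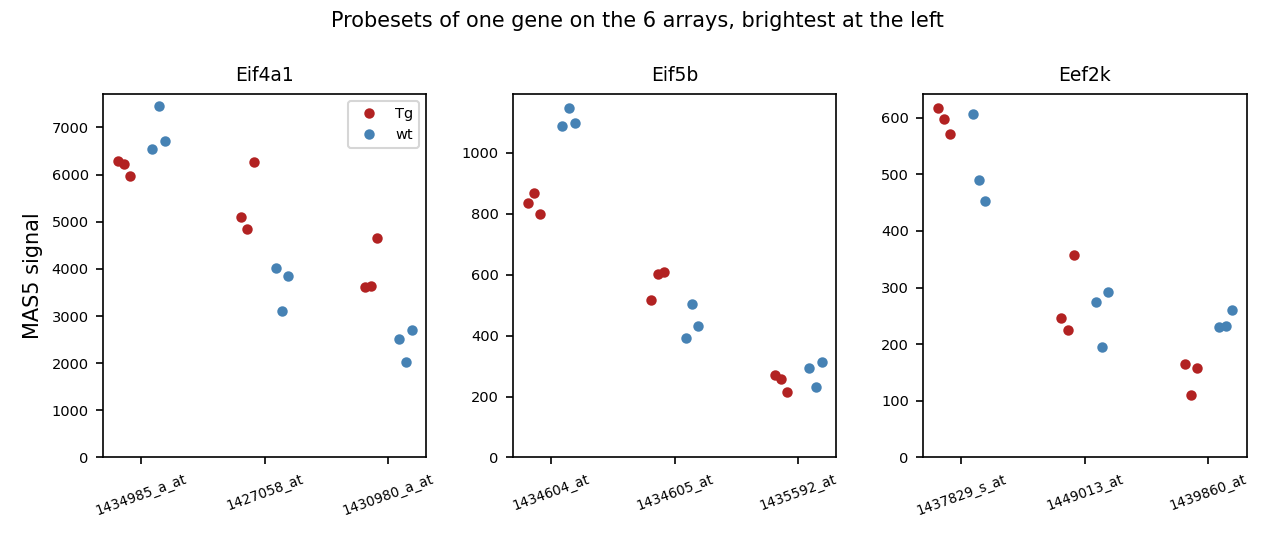
MAS5 signal (vertical axis, from 0) of every kept probeset of Eif4a1, Eif5b and Eef2k, ordered from the brightest at the left. Points are single mice (red Tg, blue wt). For Eif4a1 and Eif5b the Tg points lie below the wt points at the brightest probeset and above them at the next, and for Eef2k they lie below at the dimmest.

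Among the elongation factors, Eef2 and Eef1d had the lowest differences at the brightest probesets. Eef2, the translocase, gave 10150, 9268 and 9544 in Tg and 11528, 10870 and 10563 in wt mice. Every Tg mouse was below every wt mouse, and the difference was -0.19 (SE 0.0738, adjusted p = 0.451). Eef2k, the kinase that inhibits eEF2, was at 595 ± 23.6 in Tg and 517 ± 80.4 in wt mice with overlap (0.21, adjusted p = 0.684), while its dimmest probeset gave 166, 111 and 158 in Tg and 231, 233 and 261 in wt mice (-0.69, SE 0.237, adjusted p = 0.368). The direction for Eef2k therefore differed between probesets.

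Eef1d, a subunit of the factor that recharges eEF1A with GTP, gave 2187, 2124 and 2122 in Tg and 2335, 2621 and 2679 in wt mice. The Tg mice were within a narrow range under all wt mice (-0.24, SE 0.0921, adjusted p = 0.426), but a dimmer probeset with the suffix x gave 1007 ± 102 and 937 ± 123. Eef1a1, the ubiquitous carrier of aminoacyl-tRNA, was at 40810 ± 1172 in Tg and 41148 ± 572 in wt mice. Eef1a2, the form of adult neurons and muscle, was at 14719 ± 249 and 15599 ± 1165. Both overlapped between the groups, and Eef1a1 is a gene with many near-identical copies in the genome, whose transcripts its probeset may share. Eef1b2 and Eef1e1 differed by -0.010 and 0.026.

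The lowest difference of all was that of Eif5a2, the less common of the genes for eIF5A, a hypusine-bearing protein that helps the ribosome over difficult peptide bonds. Its signals were 1350, 1152 and 1252 in Tg and 1634, 1789 and 1635 in wt mice. No arrays overlapped, and the difference was -0.43 (SE 0.105, adjusted p = 0.235). Its dimmer probeset gave 367 ± 78.4 in Tg and 345 ± 5.24 in wt mice. Eif5a, the common form, was at 15398 ± 1248 in Tg and 15536 ± 864 in wt mice. Of the methyltransferases, Eef1akmt1 was at 824 ± 54.3 in Tg and 872 ± 146 in wt mice and Eef1akmt2 at 548 ± 64 and 580.1 ± 136. The kept 3 differed by -0.068 to -0.058, and Eef2kmt, at 6.0 to 26.3, did not pass the filter.

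Genes whose messengers begin with a terminal oligopyrimidine tract are translated under the control of mTOR. Of the factors known for such messengers, 8 were measured (Eef1a1, Eef1b2, Eef1d, Eef2, Eif3e, Eif3f, Eif3h and Eif4b), and all 8 had a lower mean in Tg mice, with a median of -0.087. For 3 of them (Eef1d, Eef2 and Eif3h) the unadjusted p was under 0.05, a background of 4.97% over all genes, and the arrays did not overlap. The brightest probesets of the 8 have mean signals of 2345 or more, all in the top 25% by signal. There the median of all genes was -0.050, 35.7% were positive and 14.9% had all Tg arrays below the wt arrays. Eef1a1, Eef1b2, Eif3e and Eif4b differed by only -0.026 to -0.010. Dimmer kept probesets exist for Eif3e, Eif4b and Eef1d, and all were higher in mean (0.031 to 0.43). Of such probesets of all genes, 59.6% were positive.

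The rule did not use the promoters, and these shared some features. Promoter sequences of RefSeq on GRCm38.p6, from 250 bases before to 50 bases after the start, exist here for 47 of the 58 genes. Together with the genes with a kept probeset, these make 11176 genes. The 47 include Eif4a3 and Eef2kmt, which did not pass the filter. The core of ETS factor sites, CGGAAG, stood on either strand in 26 of 47 factor genes (55.3%) and in 31.5% of all genes. The E-box CACGTG, which Myc and related factors bind, stood in 12 (25.5%) and in 11.1% of all genes. The TATA box TATAAA stood in 4 (8.51%) and in 9.47% of all genes. The median GC content was 61.3% and 60.7%. A gene with several starts was counted once, if any of its promoters held the letters. Of the 9 lower factors 6 have a promoter here (Eef1d, Eif3h and Eif3i are named only), and each motif but the TATA box stood in 3 of these 6, the TATA box in 1. Stretches around a match are shown for the lower factors that hold one and for Eif4a1, whose probesets disagreed, so that the letters counted can be seen in place, for the ETS core and the E-box but not for the TATA box. Capitals mark the match nearest the start, each stretch is written along the gene's own strand, and in Eef2 and Eif4a1 the ETS core is read on the opposite strand as CTTCCG. No printed match overlaps one of the other motif.
Eif5a2, ETS core, chr3:28781225-28781264, plus strand: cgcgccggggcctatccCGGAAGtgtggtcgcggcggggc
Eif5a2, E-box, chr3:28781143-28781182, plus strand: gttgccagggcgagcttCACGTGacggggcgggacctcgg
Eif2b4, ETS core, chr5:31193115-31193154, minus strand: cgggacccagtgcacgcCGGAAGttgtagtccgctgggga
Eif3k, E-box, chr7:28981910-28981949, minus strand: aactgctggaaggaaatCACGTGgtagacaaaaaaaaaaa
Eef2, ETS core, chr10:81176631-81176659, plus strand: gttgacgtcagcggtctCTTCCGccgcag
Eef2, E-box, chr10:81176571-81176610, plus strand: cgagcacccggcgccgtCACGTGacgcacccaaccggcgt
Eif4a1, ETS core, chr11:69672526-69672565, minus strand: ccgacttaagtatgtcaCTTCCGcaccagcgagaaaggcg
Eif4a1, E-box, chr11:69672590-69672629, minus strand: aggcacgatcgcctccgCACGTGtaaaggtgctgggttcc
The match lies 35 and 117 bases before the start in Eif5a2, 44 in Eif3k, 43 in Eef2 (E-box) and 125 and 189 in Eif4a1, and after the start in Eif2b4 and for the ETS core of Eef2. A match is a run of letters and was not tested for binding.

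Genes around the factors in the pathway gave 0 calls by limma in all 9 lists and 0 by Cyber-T, while of the 77 genes measured 1 was higher and 4 were lower at an unadjusted p under 0.05, where the shares over all genes are 2.9% and 4.97%. Of the mTOR signalling genes 13 were measured, 8 with a higher mean in Tg mice (median 0.025) and 0 at an unadjusted p under 0.05. The study names Mtor (as Frap1) and Rps6kb1 as up-regulated in Tg mice. Mtor differed by -0.052 at its brightest kept probeset, with overlap, and Rps6kb1 was not among the 13. Dimmer probesets of the pathway genes were not read. Rheb, the GTPase that activates mTOR, was at 7750 ± 1252 in Tg and 7011 ± 616 in wt mice with overlap. Of the integrated stress response, 8 of 10 genes were lower in mean (median -0.14). Asns, the asparagine synthetase that ATF4 induces, was at 3106 ± 48.7 in Tg and 3586 ± 281 in wt mice without overlap (-0.20, SE 0.0878, adjusted p = 0.487). Atf4 itself, whose messenger is translated better when eIF2 alpha is phosphorylated, differed by 0.083 and Ddit3 by -0.20, each with overlap.

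Of 5 genes for poly(A)-binding proteins and their partners, 4 were lower in mean (median -0.17). Paip2, which blocks the poly(A)-binding protein, gave 4069, 4239 and 4620 in Tg and 5800, 5284 and 5012 in wt mice. The groups were apart, with a difference of -0.31 (SE 0.0877, adjusted p = 0.262), and its relative Paip2b was at 1489 ± 30.1 in Tg and 1681 ± 18.6 in wt mice (-0.17, adjusted p = 0.585). Among 11 initiation helicases and repressors, 7 were lower in mean (median -0.025). Cpeb2, which binds the cytoplasmic polyadenylation element, gave 1242, 1402 and 1193 in Tg and 1631, 1646 and 1882 in wt mice (-0.42, SE 0.11, adjusted p = 0.245). The Tg mice were lower without overlap, whereas Cpeb1 was at 1553 ± 94.8 in Tg and 1373 ± 36.7 in wt mice.

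Of 18 measured aminoacyl-tRNA synthetases 10 were lower and 8 higher in mean (median -0.042). Vars, the valyl-tRNA synthetase, gave 434, 367 and 366 in Tg and 188, 301 and 287 in wt mice (0.58, SE 0.208, adjusted p = 0.396). Its Tg mice were all higher, and Qars, for glutamine, was lower with overlap at 1327 ± 180 in Tg and 1648 ± 258 in wt mice (-0.30, adjusted p = 0.509). In the remaining lists no gene had an unadjusted p under 0.05. The termination and recycling factors had 5 of 7 genes lower in mean (median -0.024), among them Mcts1 at 4348 ± 515 and 4444 ± 311. The mitochondrial factors had 6 of 8 (median -0.16), among them Mtif2 at 790 ± 106 and 886 ± 75.2. Of the enzymes that make hypusine on eIF5A, Dohh was at 954 ± 219 in Tg and 914 ± 91.7 in wt mice, and the other, Dhps, differed by -0.15. The diphthamide enzymes, which modify eEF2, had 2 of 3 genes higher in mean (median 0.066), and Dph3 was at 488 ± 24.9 and 520.5 ± 30.9.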

How the data were processed

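Hippocampal RNA of 3 Glud1 Tg and 3 wt mice was hybridized to 1 array per mouse. The deposited values are intensities, 1 MAS5 signal per probeset and array on a linear scale, as the authors deposited them per the labels. The study's own tests ran on RMA values, not used here. From the 45101 probesets the 64 controls were removed, and the dimmest 31% by mean log2 value too, so that 31076 remained, down to a mean signal of 48.8. Log2(signal + 16) was compared between groups with limma 3.58.1 in R 4.3.3 (moderated variances, intensity trend). Adjusted p values are those of Benjamini and Hochberg over the 31076 probesets. The added constant shrinks differences of dim probesets. The script was tested on simulated data. A gene is represented by its brightest probeset annotated to that gene alone; for the background this is the brightest kept probeset. Figures were drawn with matplotlib 3.10.9. The number of arrays limits the precision, and mice of a group are taken as separate animals from the study's methods.

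The factors, the role and pathway lists and the tests were chosen with earlier results of these data known. By the rule for named genes, the text names the 2 brightest genes of each role. It names every factor with an unadjusted p under 0.05 or without overlap at 1.3-fold. Also named are the factors that the study names or lists a probeset for (Eif4a1, Eif2s3x, Eif3a and Eif4e) and those left out by the filter. In each pathway list the genes at an unadjusted p under 0.05 are named, or else the brightest. Other genes and the dimmer probesets were chosen after their values were seen. Alternatives changed the added constant (1 or 64), the scaling (quantiles, or each array centred on its median), the filter (none, or the brighter part alone), limma's trend and array weights, the test (Cyber-T with window 101 and confidence 10, or the fold and p limits of the study's methods), the replicate block, the summary of a gene (mean over its probesets) and the arrays (each omitted in turn). Fits that omit wt 1 together with wt 2, and the count of lower factors, were added once the data had been seen.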

Additional observations from a re-analysis of the deposited data

How the results depend on the processing

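The precision rests on 3 mice a group. At an adjusted p of 0.05 no factor was called at its brightest probeset or by the mean of its probesets. This held for Cyber-T and the fits with single arrays left out (56 factors, or 55 with the brighter part of the probesets alone). A limit of 1.3-fold with an unadjusted limma p of 0.05 passed 2, Eif5a2 and Eif5b. These are only part of the study's criteria, which also set an FDR limit and ran on RMA values. The share of all genes passing this limit was not computed. The count of positive differences, 14, became 8 with centring on the median and 24 with both wt 1 and wt 2 left out, and lay between 13 and 20 with single arrays left out. The median, -0.056, became -0.12 with centring (all genes -0.097) and -0.036 with both wt 1 and wt 2 left out (all genes -0.031), and lay between -0.094 (without wt 3) and -0.054 with single arrays left out. The 9 lower factors became 15 with centring, 2 without the intensity trend, 4 with the mean of all probesets, and 4 to 8 with single arrays left out. The shares of all genes at that limit were not computed for these settings. Centring lowered the differences of all genes too, so the 15 cannot be read as a result about the factors.

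Of 285 recomputed values of single genes, 4 changed sign. Many of the 285 could not: the filter, limma's trend, Cyber-T and the replicate block leave each difference as it was. These settings change only its error and p value. Eif4a1 was at 0.37 with the mean of its probesets. Eif4e was at 0.010 with array weights, 0.072 with the mean of its probesets, and between -0.10 (without wt 2) and 0.083 (without wt 1) with single arrays left out. Both dimmer Eif4a1 probesets passed the threshold with Cyber-T alone. Mean-based and centred values move all genes too: 51.5% and 32.0% were positive. The cause was not tested.

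Same-numbered mice share only a number: their deviations from the group means correlated at -0.0159, 0.00779 and 0.0333. The replicate block leaves each difference as it was, so the 14 positive ones could not change. With it, 0 factors were called and 8 lower factors had an unadjusted p under 0.05. The share of all genes at that limit was not computed for this fit.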
